A study of Homo sapiens with 6 samples.

Results

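The transcripts described here are those of 10 genes that encode regulators of G-protein signalling: RGS2, RGS3, RGS4, RGS5, RGS10, RGS12, RGS16, RGS17, RGS19 and RGS20. They were found by symbol among the 60612 gene identifiers of the count table, and each matched 1 row. The list was chosen by family and by the measured rise of RGS2 in knockdown over control libraries, so the values of that comparison are a description and not a test of these genes. The data are 6 RNA-sequencing libraries of U251, an established human glioma line: 3 of the group labelled Normal Control and 3 of the group labelled TEAD3 Knockdown, made by transient transfection. The labels do not say what the control cells received, so the transfection itself is not known to be shared. A plasmid and an siRNA are both mentioned, and whether the replicates were separate cultures is not stated. Each p-value or interval thus reflects how far these libraries differ, and that spread may be technical. Total counts ran from 58344026 to 63685272 in the controls and from 63145768 to 64808615 in the knockdown, and 3 counts, the limit that a count of 0 allows, correspond to between 0.0457 and 0.0529 CPM, the count scaled to a fixed library size. This limit covers counting error only.

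A G protein is switched on when a receptor makes its alpha subunit bind GTP, and is switched off when the alpha subunit hydrolyses it. RGS proteins bind the active alpha subunit through a conserved domain, the RGS domain, and speed up that hydrolysis, which shortens the signal. The family is divided by sequence. RGS2, RGS3, RGS4, RGS5 and RGS16 belong to the small R4 proteins, RGS17, RGS19 and RGS20 to the RZ proteins, and RGS10 and RGS12 to the R12 proteins. RGS2 is known for its preference for the Gq class, which activates phospholipase C beta, while the other R4 proteins act on both the Gi and the Gq class. The RZ proteins act on Gz and Gi, and the R12 proteins on Gi.

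RGS2 occupies bases 192809039 to 192812283 of chromosome 1 (GRCh38, plus strand), at the end of a row of 5 R4 genes, RGS18, RGS21, RGS1, RGS13 and RGS2. The bases just before the annotated start of RGS2 and of RGS13, its nearest family neighbour, are shown because RGS2 was detected in all 6 libraries and RGS13 was listed at 0 in all of them. Both stretches are 250 bases long and are given from 5′ to 3′ on the plus strand of GRCh38.p14, from RefSeq, at chr1:192808789-192809038 for RGS2 and chr1:192635897-192636146 for RGS13. Capitals mark the only match to 5 motifs searched on both strands: the cAMP response element or CRE, written TGACGTCA, the shorter CRE core TGACG that overlaps it, the AP-1 motif TGANTCA, the TEAD motif GGAATG and the TATA box TATAAA.
RGS2: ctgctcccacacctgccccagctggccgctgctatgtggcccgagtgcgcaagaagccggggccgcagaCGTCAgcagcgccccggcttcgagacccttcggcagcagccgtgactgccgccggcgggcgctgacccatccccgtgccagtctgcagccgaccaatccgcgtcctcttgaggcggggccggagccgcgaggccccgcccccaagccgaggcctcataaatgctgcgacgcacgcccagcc
RGS13: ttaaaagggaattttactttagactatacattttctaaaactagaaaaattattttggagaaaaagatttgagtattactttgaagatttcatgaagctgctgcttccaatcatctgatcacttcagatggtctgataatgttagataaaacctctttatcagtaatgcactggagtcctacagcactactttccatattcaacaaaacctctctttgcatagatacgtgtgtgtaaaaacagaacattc
The RGS2 stretch was 72.8% G and C with 28 CpG dinucleotides, and the RGS13 stretch 32% with 1. The RGS2 match, CGTCA on the printed strand, is the CRE core read on the minus strand and begins 181 bases before the start. In windows of 300 bases, from 250 before to 50 after a start, the CRE core was present in 24.6% of 35116 RefSeq windows, the full CRE in 1.85%, the TEAD letters in 14%, the AP-1 letters in 7.71% and the TATA box in 11.5%. A match is a description of the letters only, and the absence of a match says only that those letters are not in this window.

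Base composition differed along the same row of genes. The windows of RGS18, RGS21, RGS1 and RGS13 were 36%, 28.7%, 41.7% and 33.7% G and C, with between 1 and 6 CpG dinucleotides each, and all of these genes were listed at 0 counts in all 6 libraries. The RGS2 window was 69.7% G and C with 32 CpG, where the median of all windows was 58.7% and 14. A low content did not go with a low level throughout the family, since the 4 windows of RGS4, the most abundant member, held between 40.7% and 50.3% G and C. The window of RGS17, a member at a low level, held 82% and 46 CpG. RefSeq windows were found for 9 of the 10 members, and RGS20 had no entry.

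The knockdown was checked first on its target. TEAD3 encodes a DNA-binding factor that recruits YAP and TAZ to their target genes. Control replicates 1 to 3 held 14.9, 20.3 and 21.0 CPM of it, and the knockdown replicates gave 4.70, 8.35 and 6.08 CPM. Every knockdown library lay below every control, at 34.0% of the control level by the fitted fold change (edgeR adjusted p = 0.0114). Leaving out control replicate 3, knockdown replicate 1 or knockdown replicate 3 ended this call, with edgeR adjusted p of 0.0541, 0.0532 and 0.0938. Of 8 glioma-line markers, VIM, CD44, NES and SOX2 were abundant and OLIG2 was listed at 0. GFAP was at 1.46 ± 0.298 CPM in the controls and 0.572 ± 0.212 CPM in the knockdown (SD, n = 3 each). FABP7 was at 2.43 ± 0.523 and 4.11 ± 0.529 CPM, and S100B at 0.374 ± 0.310 and 0.197 ± 0.241 CPM. Every knockdown library lay below every control for GFAP, VIM and SOX2, and above for FABP7. These separations were found for 10.6% and 11.0% of all tested genes. The 8 markers summed to 5273 to 5835 CPM in the controls and 4343 to 4897 CPM in the knockdown. Most of this was VIM, with means of 4484 and 3679 CPM. Of the markers tested none was called by edgeR. Microglial and leukocyte markers summed to at most 1.04 CPM in any library, with AIF1 and P2RY12 at 0. Most of this was CSF1R, with means of 0.747 CPM in the controls and 0.846 CPM in the knockdown. Endothelial markers summed to at most 3.55 CPM, with PECAM1, CLDN5 and TEK at or near 0. VWF had means of 1.55 and 0.892 CPM, CDH5 of 0.616 and 0.508 CPM and KDR of 0.575 and 1.12 CPM. Every knockdown library of KDR was above every control, as for 11.0% of all tested genes. Libraries were made from RNA purified on oligo(dT), and RNAs without a poly(A) tail were highest in knockdown replicates 1 and 3. The control libraries held RN7SL1, a signal recognition particle RNA, at 14.7, 34.5 and 17.6 CPM, and the knockdown libraries at 60.8, 14.4 and 79.8 CPM.

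RGS2 was the member that separated the groups most clearly in both counts and levels. Control replicates 1 to 3 held 20.1, 16.9 and 21.5 CPM, from 1316, 956 and 1290 counts. Knockdown replicates 1 to 3 held 61.3, 53.3 and 66.3 CPM, from 3821, 3415 and 4333 counts. The lowest knockdown library was therefore well above the highest control, and the spread within each group was small beside the gap, with SDs of 2.37 CPM around 19.5 and 6.56 CPM around 60.3. The fitted ratio was 3.10, with a 95% interval of 2.54 to 3.78, or 1.63 on the log2 scale (SE 0.131). This difference was among those used to choose the genes and is not offered as a test. In bulk RNA a higher level in each cell and a larger share of cells with the transcript cannot be told apart.

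The libraries with the lowest RGS2 levels in each group were control replicate 2 and knockdown replicate 2. Control replicate 2 stood apart in base composition, with a Spearman correlation across genes between its deviations and transcript GC content of 0.668, where the other libraries lay between -0.551 and 0.181. Knockdown replicate 2 had the highest remaining TEAD3 level, 8.35 CPM, and the lowest RN7SL1 level of the 3 knockdown libraries. Whether these features bear on the RGS2 level was not tested. With the level of RNAs without a poly(A) tail as a covariate, the log2 fold change of RGS2 was 1.59, and after a correction of each library for transcript length and GC content it was 1.47. Without control replicate 2 it was 1.54 and without knockdown replicate 2 it was 1.71. In each of these fits RGS2 remained past the threshold of an edgeR adjusted p under 0.05. The fits reuse the libraries in which RGS2 was chosen and are not a test of it.

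**Figure D1:**
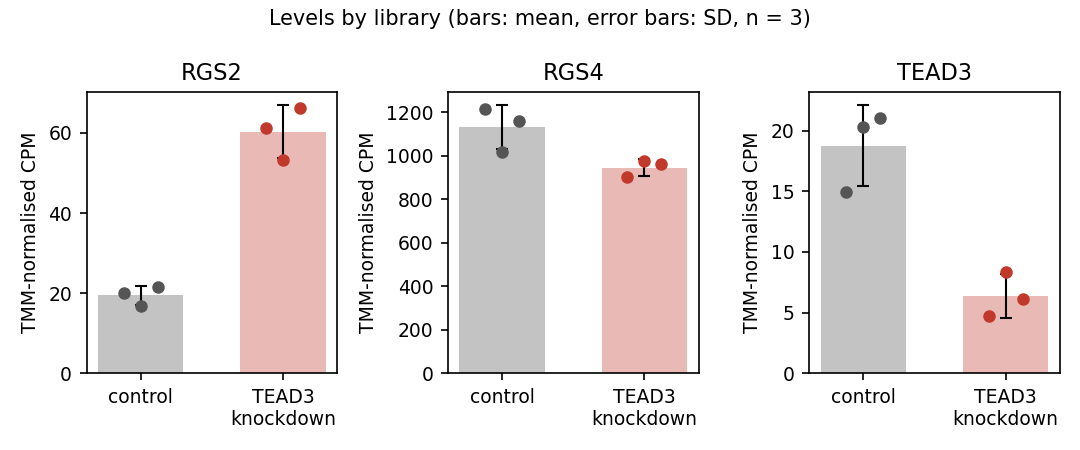
TMM-normalised CPM of RGS2, RGS4 and TEAD3 in each library, with points for libraries, bars for the group means starting at 0, and error bars for the SD over 3 libraries. RGS2 was at 16.9 to 21.5 CPM in the controls and 53.3 to 66.3 CPM in the knockdown, RGS4 at 1019 to 1215 and 903 to 975 CPM, and TEAD3 at 14.9 to 21.0 and 4.70 to 8.35 CPM.

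One of the 10 members, RGS2, had an edgeR adjusted p under 0.05, and none of the other 9 did. Across the 17723 genes tested, the call was made for 116 genes, or 0.655%, 0.451% being called higher and 0.203% lower. No member was called lower. RGS2 was also the only member called by DESeq2, which called 4.92% of tested genes. RGS2 was higher in every knockdown library than in any control, a separation found for 11.0% of tested genes, and RGS4 and RGS12 were lower in every one, which was found for 10.6%. Because this contrast was used in choosing the members, nothing is read from the count. All 10 members passed the filter on low counts, RGS16 narrowly. Over the 10 members 3 fold changes were above 0 and 7 below, and the median log2 fold change was -0.11, where that of all tested genes was -0.0012.

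Among the other R4 genes RGS4 was by far the most abundant and slightly lower in the knockdown. RGS4, which is prominent in brain and acts on Gi and Gq, was at 1215, 1019 and 1158 CPM in control replicates 1 to 3, and the knockdown replicates gave 903, 975 and 960.0 CPM. The groups did not overlap, but the gap between the lowest control and the highest knockdown library was smaller than the spread of the controls (SD 101 CPM). The log2 fold change was -0.26 with a 95% interval of -0.47 to -0.04, and RGS4 was not called. RGS4 is on chromosome 1 from 163068775 to 163076802 on the plus strand.

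RGS3 (chromosome 9, 113444731 to 113597743, plus strand), whose gene makes long and short proteins that share the RGS domain, was at 86.0, 78.9 and 87.2 CPM in the control libraries, with 78.7, 87.8 and 81.2 CPM after knockdown. The 2 sets of libraries lay across each other, with means of 84.0 ± 4.50 and 82.6 ± 4.69 CPM (SD, n = 3 each). The 95% interval of the ratio ran from 0.848 to 1.14.

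RGS5 (chromosome 1, 163111121 to 163321791, minus strand) is best known as a marker of pericytes, the contractile cells around small vessels. It was at 6.28, 4.92 and 6.58 CPM in the control libraries, with 5.14, 5.78 and 5.33 CPM after knockdown, so the groups overlapped. The log2 fold change was -0.13 with an interval of -0.54 to 0.28. Of 6 other pericyte markers, PDGFRB was at 6.67 and 6.73 CPM in controls and knockdown, KCNJ8 at 14 and 15.1 CPM, and CSPG4 at 0.578 and 0.342 CPM. The most abundant, ANPEP and ACTA2, had 78.1 ± 17.1 and 30.5 ± 6.53 CPM in the controls and 62.5 ± 13.6 and 25.9 ± 1.34 CPM in the knockdown, with overlapping libraries. None of these was called, and ABCC9 was too low to be tested. The pericyte list summed to 114 to 159 CPM in the controls and 93.7 to 124 CPM in the knockdown. The exons of RGS5 overlap those of ENSG00000232995 on the same strand, so its counts are uncertain.

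RGS16 (chromosome 1, 182598623 to 182604408, minus strand) was at the edge of detection. Its counts were 11, 0 and 4 in control replicates 1 to 3, and in the knockdown replicates 0, 11 and 25, with a 0 in each group. It passed the filter on low counts through control replicate 1 and knockdown replicates 2 and 3. Its fold change had a 95% interval from 0.30 to 17.6, too wide to give a direction at this depth. Without control replicate 1 the log2 fold change was 2.39 and without knockdown replicate 3 it was 0.12.

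The RZ genes were low and none of them separated the groups. RGS17 (chromosome 6, 153004459 to 153131249, minus strand) was at 2.51, 1.85 and 2.81 CPM in the control libraries, with 3.90, 1.92 and 4.38 CPM after knockdown. Knockdown replicates 1 and 3 were above every control and knockdown replicate 2 was among them, and RN7SL1 was also highest in knockdown replicates 1 and 3. Whether these patterns are linked was not tested. The log2 fold change of 0.51 (interval -0.19 to 1.20) became 0.14 with the covariate for RNAs without a poly(A) tail, and it was 0.79 without knockdown replicate 2 and 0.28 without knockdown replicate 3. That covariate was itself highest in knockdown replicates 1 and 3, so it cannot be fully told apart from group.

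RGS19 (chromosome 20, 64073181 to 64079988, minus strand), a partner of the Gi alpha subunit, varied most within the controls among the members with over 100 counts per library. It was at 5.81, 7.76 and 11.3 CPM in control replicates 1 to 3, a coefficient of variation of 33.7% where counting alone gives 4.47%. In the knockdown it was at 8.78, 8.31 and 6.06 CPM, inside the range of the controls. Its log2 fold change was -0.10 and turned to 0.19 without control replicate 3, to 0.04 without knockdown replicate 3 and to 0.01 with the covariate for RNAs without a poly(A) tail. RGS20, the RZ protein first described as selective for Gz, was at 4.83, 3.86 and 5.53 CPM in the control libraries, with 4.08, 2.92 and 3.78 CPM after knockdown. The 2 ranges met, with knockdown replicate 1 above control replicate 2, and the log2 fold change was -0.40 (interval -0.89 to 0.09).

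Of the R12 genes, RGS12 was lower in the knockdown without passing the threshold. RGS12 (chromosome 4, 3293028 to 3439913, plus strand) encodes a large scaffold protein with PDZ, Ras-binding and GoLoco parts beside the RGS domain. It was at 11.9, 12.3 and 10.8 CPM in the control libraries, with 7.80, 10.6 and 8.22 CPM after knockdown, so every knockdown library was below every control, with control replicate 3 and knockdown replicate 2 nearly level. The log2 fold change was -0.40 (interval -0.76 to -0.03). RGS10 (chromosome 10, 119499828 to 119542708, minus strand), a short protein that is little more than the RGS domain, was at 18.4, 16.5 and 15.4 CPM in the control libraries, with 16.0, 14.8 and 15.6 CPM after knockdown. These ranges overlapped, and the interval of the ratio was 0.760 to 1.12.

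**Figure D2:**
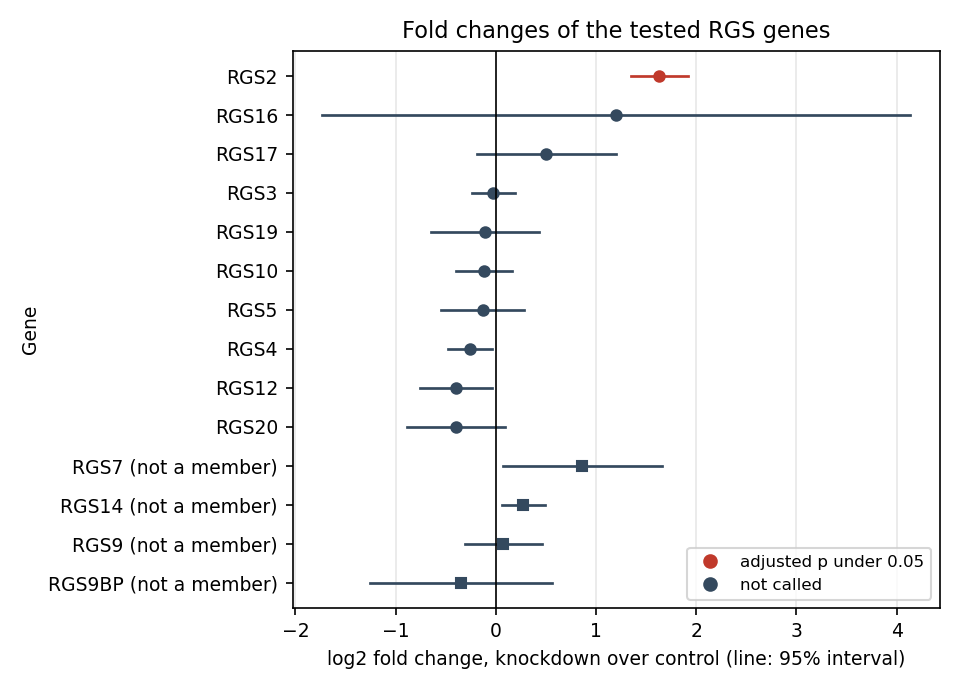
Fitted log2 fold change of knockdown over control for each tested RGS gene, as points with lines for the 95% interval, members as circles and other family genes as squares. RGS2 stands at 1.63, while the other members lie between -0.40 and 0.51 apart from RGS16, whose interval runs from -1.73 to 4.14.

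Levels of different genes were compared as CPM per kilobase of the gene's annotated exons. In the controls the order of the members was RGS4, RGS10, RGS2, RGS3, RGS19, RGS20, RGS5, RGS12, RGS17 and RGS16. RGS4 was at 234 ± 20.9 CPM per kilobase and the second member, RGS10, at 13.4 ± 1.21. RGS2 at 9.29 ± 1.13 was above RGS3 at 6.09 ± 0.326 in the sense that no libraries overlapped. RGS19 followed at 4.09 ± 1.38 and RGS20 at 1.48 ± 0.262, again without overlap. RGS5 and RGS12, at 0.869 ± 0.130 and 0.849 ± 0.0560 CPM per kilobase, did not differ beyond their spread. RGS17 was at 0.303 ± 0.0624 and RGS16 at 0.0322 ± 0.0348.

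In the knockdown libraries RGS2 took the second place in the order. It was at 28.8 ± 3.13 CPM per kilobase, above RGS10 at 12.4 ± 0.481 with no overlap, and below RGS4 at 196 ± 7.87. The order of the other members did not change. With the longest annotated transcript in place of all exons, RGS3 and RGS2 changed places in the control order, as did RGS5 and RGS12. The exons of RGS3 and RGS12 add up to 13793 and 13755 bases, and their longest transcripts hold 4591 and 5512. The place of RGS4 and RGS10 was the same with both lengths.

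**Figure D3:**
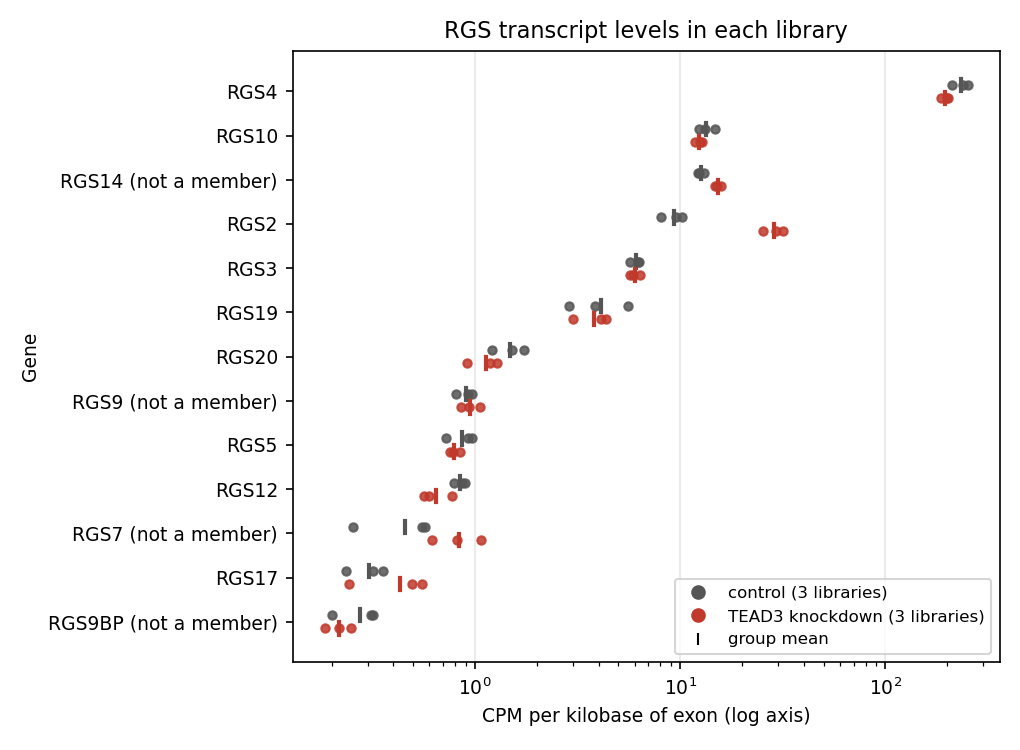
CPM per kilobase of exon on a log axis for the RGS genes with counts in every library, points for libraries and short bars for group means, in the order of the control means. RGS4 is at the top near 234 in the controls, RGS2 moves from 9.29 to 28.8, and control and knockdown libraries of the members RGS3, RGS5, RGS10, RGS17, RGS19 and RGS20 overlap.

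The make-up of the RGS transcripts as a whole followed from these values. Summed over the RGS genes numbered 1 to 22 in the table, the level was 258 to 302 CPM per kilobase in the controls and 258 to 273 in the knockdown, so the sums overlapped. RGS4 made up 83.2%, 81.6% and 81.9% of the sum in control replicates 1 to 3 and 72.3%, 74.9% and 72.8% in the knockdown replicates. The share of RGS2 was 3.17%, 3.11% and 3.5% in the controls and 11.3%, 9.46% and 11.6% in the knockdown. RGS4 was 23.4 to 26.3 times as abundant as RGS2 in the controls and 6.27 to 7.92 times in the knockdown. Without RGS4, RGS2 made up 16.9% to 19.4% of the remaining sum in the controls and 37.8% to 42.7% in the knockdown. These shares restate the levels of RGS2 and RGS4 and are no further evidence of a change.

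**Figure D4:**
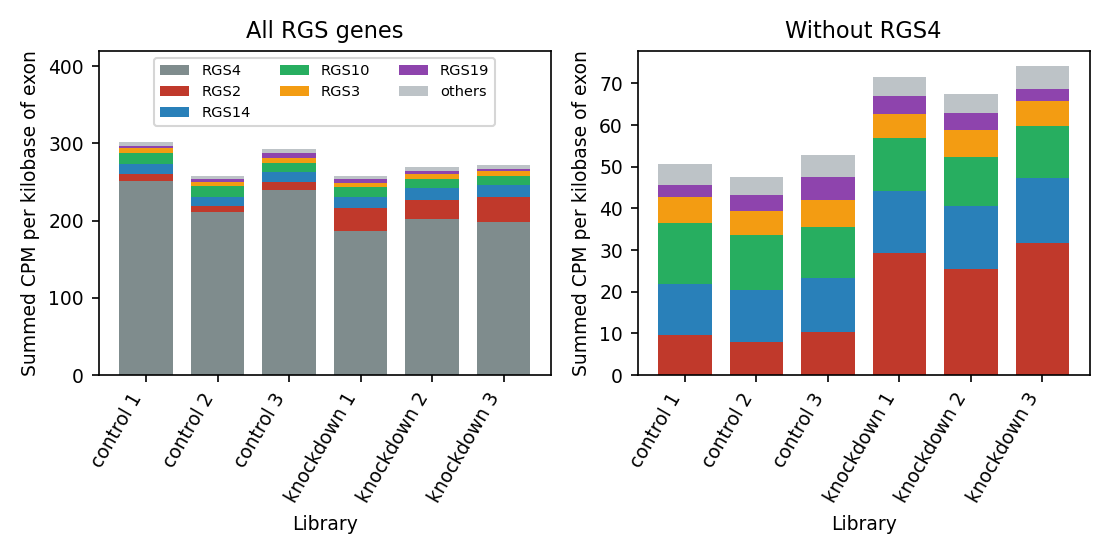
Summed CPM per kilobase of exon of the RGS genes in each library, as stacked bars from 0, with all genes on the left and without RGS4 on the right. RGS4 fills 72.3% to 83.2% of the bars on the left, and on the right the part of RGS2 grows from 16.9% to 19.4% in the controls to 37.8% to 42.7% in the knockdown.

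The rest of the family, which the list of members leaves out, was mostly undetected. Of 13 further genes, which include the partners RGS7BP and RGS9BP, 8 were listed at 0 in every library (RGS1, RGS8, RGS11, RGS13, RGS18, RGS21, RGS22 and RGS7BP), and RGS6 reached at most 5 counts in any library. Those tested were RGS7, RGS9, RGS14 and RGS9BP, and none was called. RGS14, an R12 protein with a Ras-binding part, was the most abundant at 46.6, 47.1 and 49.5 CPM in the control libraries, with 56.3, 57.3 and 59.8 CPM after knockdown. All knockdown libraries of RGS14 were above all controls, as were those of RGS7, a separation found for 11.0% of all tested genes. The RGS14 log2 fold change was 0.28 (SE 0.0961, edgeR adjusted p = 0.208). RGS7, an R7 protein that works bound to the beta subunit GNB5, was at 1.42, 0.652 and 1.47 CPM in the control libraries, with 1.59, 2.09 and 2.76 CPM after knockdown (0.86, SE 0.361, edgeR adjusted p = 0.284). Its exons overlap those of ENSG00000226919 on the opposite strand, so its counts are uncertain. GNB5 itself had 26.1 ± 1.53 and 25.2 ± 1.66 CPM (-0.05, edgeR adjusted p = 0.888).

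The genes around RGS2 on chromosome 1 did not show its difference. Within 1000 kb on either side lie 10 other genes annotated as protein-coding, and 5 of them were tested. The nearest, RPS27AP5, lies 92.4 kb before RGS2 and was at 0.453 and 0.487 CPM, from 21 to 38 counts per library. Its symbol is that of a pseudogene, and its exons overlap MIR4426 on the same strand, so its counts are uncertain. On the other side UCHL5, which encodes a deubiquitinase of the proteasome, is on the minus strand with its nearer, 3′ end about 200 kb after RGS2 and was at 43.6 ± 8.25 and 45.3 ± 2.27 CPM (log2 difference 0.06, edgeR adjusted p = 0.906). RO60, GLRX2 and CDC73 beyond it had log2 fold changes of 0.04, 0.24 and -0.02, with edgeR adjusted p of 0.954, 0.369 and 0.972. Exons of UCHL5, RO60, GLRX2 and CDC73 overlap a gene on the opposite strand, so their counts are uncertain.

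The G proteins that RGS proteins act on were present in these cells and none was called. Values in parentheses after CPM are log2 fold changes, and pairs of means give controls first, with the SD over 3 libraries. Of 16 alpha subunit genes 13 were tested, 11 with a fold change below 0 and 2 above, with a median log2 fold change of -0.18. GNAQ and GNA11, the alpha subunits that RGS2 prefers, were at 33.6 ± 5.23 and 97.1 ± 16.1 CPM in the controls and 31.6 ± 1.01 and 87.7 ± 2.05 CPM in the knockdown (edgeR adjusted p of 0.804 and 0.613). GNAS, the stimulator of adenylyl cyclase, was the most abundant at 904 ± 65.3 and 746 ± 86.8 CPM (-0.28, edgeR adjusted p = 0.255), followed by GNAI2 at 521 ± 27.6 and 445 ± 44.9 CPM (-0.23, edgeR adjusted p = 0.314). GNAZ, the partner of the RZ proteins, had 3.7 ± 1.06 and 2.67 ± 0.311 CPM (-0.47, edgeR adjusted p = 0.411). Before adjustment, 4 alpha subunit genes were lower and none higher at p under 0.05, where 7.43% of all tested genes were lower and 8.15% higher. DESeq2 called 1 lower, where it called 4.92% of all 17723 tested genes, 384 of them lower. Exons of GNAS, GNA11 and GNAZ overlap genes on the opposite strand.

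Among beta and gamma subunits, which complete the G protein, none of 12 tested genes was called. Before adjustment 2 were lower and none higher at p under 0.05, against the same 7.43% and 8.15% of all tested genes, and by DESeq2, which called 4.92% of them, GNB1 alone was called. GNB1, the most abundant beta subunit, was at 353, 341 and 362 CPM in the control libraries, with 242, 288 and 249.9 CPM after knockdown. Every knockdown library was below every control, as for 10.6% of all tested genes. The log2 fold change of GNB1 was -0.44 (SE 0.0990, edgeR adjusted p = 0.0774). In the fit that left out control replicate 2 it passed the threshold (edgeR adjusted p = 0.0417). GNB2 was at 217 ± 26.6 and 207 ± 3.6 CPM (-0.07, edgeR adjusted p = 0.818).

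Among 13 tested genes of the Gq pathway, 1 fell, PRKCH, and 12 were not called, where edgeR called 0.203% of all tested genes lower. Before adjustment 4 were lower and none higher at p under 0.05, against 7.43% and 8.15% of all tested genes. DESeq2, which called 4.92% of all 17723 tested genes, 384 of them lower, called 2 lower in this list, PRKCH among them. Every knockdown library was below every control for 5 and above for 1, against 10.6% and 11.0% of all tested genes. PRKCH encodes protein kinase C eta, which is activated by diacylglycerol, a product of phospholipase C. It was at 20.6, 19.2 and 21.6 CPM in the control libraries, with 12.3, 11.9 and 13 CPM after knockdown, which is a log2 change of -0.72 (SE 0.124, edgeR adjusted p = 0.0294). The call ended when control replicate 1 or 3 or any knockdown replicate was left out, with edgeR adjusted p between 0.0862 and 0.177 and values between -0.75 and -0.68. Its exons overlap genes on both strands, so its counts are uncertain. The phospholipase genes PLCB1, PLCB3 and PLCB4 had log2 fold changes of 0.09, -0.17 and 0.13, with edgeR adjusted p of 0.875, 0.547 and 0.825. ITPR3, a receptor channel for the phospholipase product inositol trisphosphate, was at 111 ± 14.3 and 98.2 ± 18.5 CPM (-0.18, edgeR adjusted p = 0.604). TRIO, a guanine nucleotide exchange factor of this pathway, was at 96.9 ± 9.44 and 77.9 ± 11.5 CPM (-0.32, edgeR adjusted p = 0.259).

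Receptors that couple to G proteins were mostly low, with 34 of 65 tested. Of these 1 had fallen and 33 were not called, where edgeR called 0.203% of all tested genes lower. Every knockdown library was above every control for 4 receptors and below for 4, against 11.0% and 10.6% of all tested genes. Before adjustment 5 were higher and 4 lower at p under 0.05, against 8.15% and 7.43% of all tested genes. DESeq2, which called 4.92% of all tested genes, called DRD2 and LPAR6 higher and CNR1, F2R, S1PR3 and S1PR5 lower. The fallen one was CNR1, the cannabinoid receptor, which couples to Gi. It was at 195, 147 and 164 CPM in the control libraries, with 78.4, 84.4 and 75.6 CPM after knockdown (log2 difference -1.09, SE 0.117, edgeR adjusted p = 0.00242), and the call held whichever library was left out. F2R, the thrombin receptor, was the most abundant in this list at 188 ± 18.4 and 146 ± 13.9 CPM (-0.37, edgeR adjusted p = 0.157). In the fit that left out control replicate 2 it passed the threshold (edgeR adjusted p = 0.0418). ADORA2B, an adenosine receptor coupled to Gs, had 44.5 ± 3.02 and 44.1 ± 2.22 CPM (-0.01, edgeR adjusted p = 0.97).

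Because RGS2 is also known as a gene that cAMP and calcium signals induce, the cAMP pathway and other genes known to respond to cAMP were listed. None of 30 tested pathway genes and none of 16 tested responsive genes was called. Fold changes were above 0 for 12 pathway genes and below for 18, and above for 12 responsive genes and below for 4. Medians were -0.08 and 0.14, where that of all tested genes was -0.0012. Before adjustment, p was under 0.05 for 5 higher and 2 lower pathway genes and 5 higher and no lower responsive genes. Of all tested genes 8.15% were higher and 7.43% lower. DESeq2, which called 4.92% of all 17723 tested genes, 488 of them higher, called 1 and 2 higher in these lists. Every knockdown library was above every control for 4 genes of each list, as for 11.0% of all tested genes. It was below for 2 pathway genes and 1 responsive gene, as for 10.6%. The lists overlap, and CREM is counted as higher in both. PRKAR1A, a regulatory subunit of protein kinase A, had 272 ± 28.7 and 254 ± 5.55 CPM (-0.10, edgeR adjusted p = 0.687), and the transcription factor gene CREB3 at 209 ± 25.8 and 249.9 ± 17.1 CPM (0.26, edgeR adjusted p = 0.296). Of the responsive genes, BDNF, a neurotrophin gene, was at 27.9 ± 3.85 and 28.6 ± 2.85 CPM (0.03, edgeR adjusted p = 0.953).

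**Figure D5:**
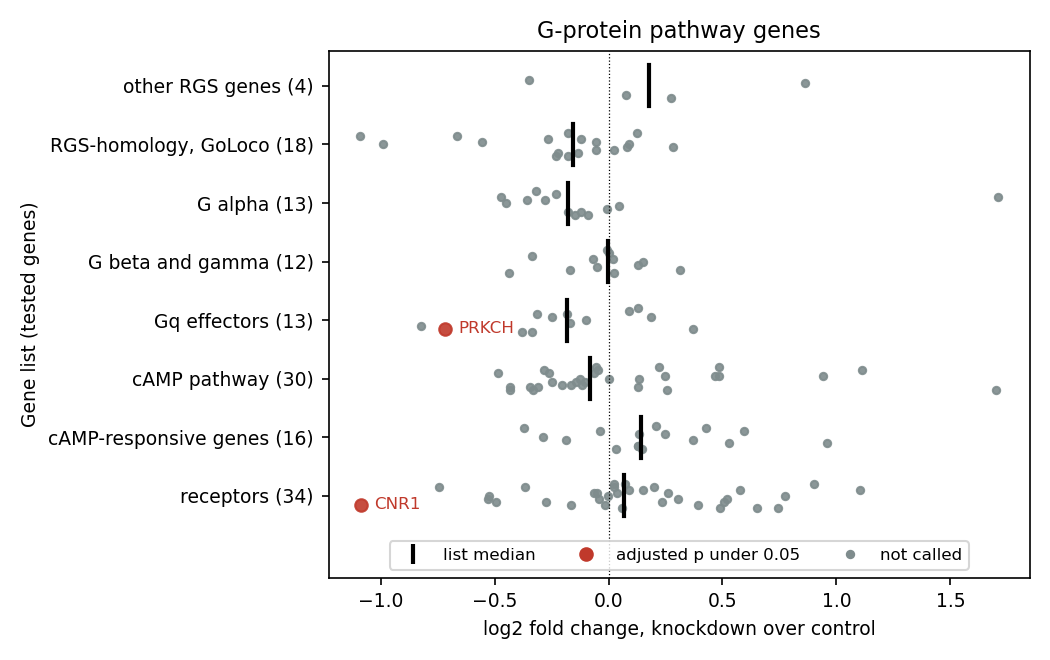
Log2 fold change of knockdown over control for each tested gene of 8 lists of G-protein signalling genes, 1 point per gene, with black bars for list medians and red points for an edgeR adjusted p under 0.05. Only PRKCH at -0.72 and CNR1 at -1.09 are red, and the medians lie between -0.18 and 0.18.

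A further list held other proteins with an RGS-like domain or a GoLoco motif, which bind alpha subunits. Of 20 such genes 18 were tested and none was called, with a median log2 fold change of -0.16, and DESeq2 called none. Before adjustment 1 was higher and 3 lower at p under 0.05, against 8.15% and 7.43% of all tested genes. The most abundant uncalled genes were ARHGEF12, a guanine nucleotide exchange factor driven by the G12 class, at -0.27 on the log2 scale (edgeR adjusted p = 0.319), and the related ARHGEF1 at -0.06 (edgeR adjusted p = 0.893). Without control replicate 2 ARHGEF12 passed the threshold (edgeR adjusted p = 0.0369).

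Over these 8 lists together 137 of 196 genes were tested, 2 fell and none rose. DESeq2 called 5 higher and 8 lower. The median log2 fold change was -0.04, and 19 genes had every knockdown library below every control while 14 had the opposite. Among all tested genes edgeR called 0.655% and DESeq2 4.92%, and every knockdown library lay below every control for 10.6% and above for 11.0%. No test was made over the lists.

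The genes whose pattern over the 6 libraries was most like that of RGS2 were taken from 10285 tested genes with a symbol and an average log2 CPM of at least 3. Likeness was the root mean square difference in log2 CPM after each gene was centred on its control mean, so that 0 is an identical pattern. The median over these genes was 1.16. DHRS2, a short-chain dehydrogenase gene, was the nearest at 0.161. It was at 12.9, 12.2 and 13.1 CPM in the control libraries, with 32.3, 36.4 and 40.1 CPM after knockdown. The next were the histone genes H4C14 at 0.167, H1-2 at 0.210 and H4C15 at 0.235, then AKR1C1, an aldo-keto reductase gene, at 0.238 and the histone gene H2AC6 at 0.243. The 4 histone genes are replication-dependent ones, whose transcripts mostly lack a poly(A) tail, and H4C14 and H4C15 are near-identical copies whose reads may be split. In all of these except DHRS2 the lowest knockdown library was replicate 2, as it was in RGS2, at 11.6 CPM in H4C14 and 15.2 CPM in AKR1C1. In DHRS2 the lowest was replicate 1. In H2AC6 knockdown replicates 1 and 2 were nearly level, at 45.1 and 44.6 CPM. These genes were picked for likeness to RGS2, so their rise, their calls and the shared lowest library largely follow from that choice. With the covariate for RNAs without a poly(A) tail, DHRS2, H4C14, H1-2, H4C15 and H2AC6 were still called, at log2 fold changes of 1.51, 1.70, 1.3, 1.59 and 1.77, and AKR1C1 was at 1.59 (edgeR adjusted p = 0.0568). The likeness itself was not recomputed with it.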

How the data were processed

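Build GRCh38 and 5 programs (HISAT2 2.0.4, cutadapt 1.9, edgeR, DESeq2 and StringTie 1.3.4d) are listed, per the submitters' processing notes. The authors deposited whole-number counts per Ensembl gene, unscaled. The counting tool, its strand setting, its annotation and its handling of multiply placed reads were not given in the sources used here, and a listed 0 may be a failed estimate. Symbols matched 60588 of 60612 identifiers, and positions and exons came from GENCODE release 29 on GRCh38.

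Counts were analysed in R 4.3.3 with edgeR 4.0.16: TMM scaling, filterByExpr with its minimum of 10 counts, and the two-sided quasi-likelihood test on group alone, with Benjamini-Hochberg adjustment over the 17723 genes tested of 29520 with any count. A gene is called at an adjusted p under 0.05. CPM are counts scaled by the TMM-adjusted library size. DESeq2 1.42.0 and limma-voom (limma 3.58.1) were alternatives, and the procedure was tested on simulated counts. Every pair of libraries differed by more than sampling noise (chi-square divided by its degrees of freedom, 21.3 to 87.4).

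The members, the pathway lists and the rule for naming genes were chosen with earlier results of these data known. Named by that rule are TEAD3, the members, the tested family genes, the genes beside RGS2, the 6 genes most like it and, in each list, the called genes and the 2 most abundant uncalled ones. GNAQ, GNA11, GNAZ, GNB5, CREM, the PLCB genes, receptors called by DESeq2 alone and the markers were named outside it, after their values were seen. One gene that the rule would name is not reported here.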

Additional observations from a re-analysis of the deposited data

How the results depend on the processing

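RGS2 was called in all 17 alternative fits, with log2 fold changes between 1.47 and 1.71, between 1.54 and 1.71 with 1 library left out, and it was called at an adjusted p under 0.01. No other member was called in any of them, so the count of called members was 1 throughout. RGS2 was chosen for its rise in these same libraries, so its calls in the fits are a description and no further evidence of a change. The number of called genes was less stable. It was 31 with no filter on low counts, 197 when dispersions were fitted robustly, 872 by DESeq2, 564 with the length and GC correction, 25 with the covariate for RNAs without a poly(A) tail and 27 at an adjusted p under 0.01, and from 20 to 589 with 1 library left out. Among pathway genes, where 2 were called, the number was 1 with no filter, 13 by DESeq2, 6 with the length and GC correction, 1 with the covariate for RNAs without a poly(A) tail and 1 at an adjusted p under 0.01, and from 1 to 11 with 1 library left out. CNR1 was called in every fit. With no filter and with that covariate, PRKCH was at -0.72 both times and TEAD3 at -1.56 and -1.44, but neither was called (edgeR adjusted p of 0.0844 and 0.177, and of 0.0639 and 0.0582). AKR1C1 was not called with the covariate (1.59, edgeR adjusted p = 0.0568). The log2 fold change of RGS3 turned positive with the covariate (0.05), without control replicate 3 (0.0022) or without knockdown replicate 1 (0.01), and that of RGS5 with the covariate (0.0053). Libraries with the same number did not deviate together (correlations of 0.0037, -0.0032 and 0.0097), so the numbers are not taken as pairs. With the replicate number as a block 63 genes were called, 1 of them a pathway gene, RGS2 was at 1.63 and PRKCH was at -0.72 but not called (edgeR adjusted p = 0.0794). The shares of higher calls were 69.0% in the analysis as reported and 46.8% with the length and GC correction. The depth limits RGS16, with at most 25 counts and no value under the stricter filter, and the family genes listed at 0.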
